A study of Mus musculus with 8 samples.

Results

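The genes described here are 33 integrin and leukocyte adhesion genes, taken from a fixed list of integrin subunits, a selectin and its ligand, cell surface adhesion molecules and integrin adaptors. They were among 35944 genes to which the transcripts of the deposited table were summed. All 33 were found in the table and 32 passed the low-count filter that 10361 genes passed. The RNA was from mouse buffy coat, the layer of leukocytes and platelets that forms when blood is spun. One group of 4 libraries came from PM2.5 exposure over 24 weeks (PM2.5 is particulate matter small enough to be inhaled deeply) and is named here as PM2.5 replicates 9, 17, 18 and 21. The control group came from mice given PBS, phosphate-buffered saline, over the same 24 weeks, and is named PBS replicates 4, 10, 12 and 16. The labels name no strain, age, sex, dose or route, and whether each library is its own animal is not stated. The p-values therefore cover the spread among these libraries, which may be technical.

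Integrins are surface receptors built from an alpha and a beta subunit. On resting blood cells they are held in a bent, inactive shape, and the adaptors talin and kindlin bind the beta tail and switch them on. Selectins slow leukocytes on the vessel wall by binding sugars on ligands such as the product of Selplg, after which integrins bind immunoglobulin-type ligands of the endothelium and the cell arrests and crosses. Platelets carry integrins, P-selectin and the same adaptors, and use them to bind collagen, laminin and fibrinogen.

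Promoter sequences are shown for 3 genes that stand for the patterns described further on. Jaml is the gene that passed the test, Fermt3 varied between libraries as platelet markers did, and Itgam did not. Each run is the 250 bases before the annotated start, 5′ to 3′ on the gene's strand, from RefSeq on GRCm38.p6, with capitals marking a match to one of 4 motifs searched on both strands. The windows are chr9:45078933-45079182 (plus strand) for Jaml, chr19:7019470-7019719 (minus strand) for Fermt3 and chr7:128062390-128062639 (plus strand) for Itgam.
Jaml: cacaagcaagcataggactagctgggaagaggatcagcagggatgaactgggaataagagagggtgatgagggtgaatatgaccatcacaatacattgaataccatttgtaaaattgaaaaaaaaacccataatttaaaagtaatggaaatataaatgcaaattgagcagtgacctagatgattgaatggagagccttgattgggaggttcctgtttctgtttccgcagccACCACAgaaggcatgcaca
Fermt3: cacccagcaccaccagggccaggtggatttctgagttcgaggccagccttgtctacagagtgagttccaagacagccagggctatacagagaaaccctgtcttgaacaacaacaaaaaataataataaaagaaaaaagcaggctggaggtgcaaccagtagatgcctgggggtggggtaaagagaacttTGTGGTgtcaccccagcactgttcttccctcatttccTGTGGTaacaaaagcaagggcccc
Itgam: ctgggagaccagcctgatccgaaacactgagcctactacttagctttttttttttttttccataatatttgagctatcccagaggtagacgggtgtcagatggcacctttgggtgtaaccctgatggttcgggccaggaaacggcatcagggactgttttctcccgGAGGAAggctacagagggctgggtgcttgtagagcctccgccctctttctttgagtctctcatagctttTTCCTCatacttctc
The PU.1-type motif searched was spelled GAGGAA. For the ETS-type motif the letters were CGGAAG. The GATA-type motif was searched as AGATAA. The RUNX-type letters were TGTGGT, and none of these 4 motifs is contained in another. Jaml held the RUNX-type motif on the other strand, beginning 19 bases before the start. Fermt3 held it at 61 and 24 bases before the start. Itgam held the PU.1-type motif at 84 bases before the start and, on the other strand, at 15 bases. Among 32851 promoter windows of that length, 14% held the RUNX-type letters, 23.3% the PU.1-type, 13.6% the ETS-type and 9.99% the GATA-type. Of 26 windows matched to 24 of the 33 genes, 6, 8, 5 and 2 held them in that order. A match describes letters in this window and is not a binding site.

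Libraries held 72042685 to 89003605 expected counts, of which haemoglobin transcripts took 82.4% to 88.7%. This left 9615068 to 12714378 counts for other genes, and the adhesion genes held 37578 to 106550 of them, or 0.388% to 0.838%. All listed markers of monocytes, B cells, T cells, NK cells and platelets, and 9 of 11 of neutrophils, were counted in each of the 8 libraries. Of the 7 endothelial markers, Cdh5, Tek, Emcn, Cldn5 and Egfl7 had 0 to 10 counts in any library. The remaining markers of that list, Kdr and Vwf, were counted in each of the 8 libraries. Summed over all libraries, Kdr had 178 counts and Vwf 8.47e+04, so the endothelial list was split. PM2.5 replicates 17 and 18 also held brain-expressed transcripts, with 78 and 97 counts of Camk2a against at most 4 in the other libraries. In bulk samples such as these, fewer cells of a type and less RNA per cell cannot be told apart.

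By level per length, 5 adaptors and the subunits Itga6 and Itgb1 led the list. In FPKM, fragments scaled by transcript length and library size, the highest median over the 8 libraries was that of Zyx, which encodes the actin-linked adaptor zyxin, at 52.95 (26.3 to 102). Parvb (parvin beta, a partner of integrin-linked kinase) followed at a median of 37.2 FPKM, then Itga6 (a laminin-binding alpha subunit) at 28.16, Fermt3 (kindlin of blood cells) at 20.26, Ilk (integrin-linked kinase) at 19.29, Itgb1 (the beta subunit with the most alpha partners) at 17.24 and Tln1 (talin) at 16.02. Itgb2, the beta subunit of the leukocyte integrins, had a median of 13.33 FPKM, Cd44, a hyaluronan receptor, 12.46, and Itgal, the alpha partner of Itgb2 on lymphocytes and other leukocytes, 7.665. The ranges over libraries of neighbours in this order overlapped. At the other end were Itga1 (a collagen-binding alpha subunit), with a median of 0.055 FPKM, and Itgad, an alpha subunit of tissue macrophages, with 0.015. Itgad had 0 to 6 counts in a library, with 0 counts in PBS replicates 12 and 16, where 0 counts allow up to 3, and was not tested.

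The comparison asked whether transcripts of these genes differed with exposure. Jaml, which encodes a junctional adhesion molecule of leukocytes, was the 1 gene of the 32 tested that passed the threshold, and it was higher with PM2.5. Across all genes tested, 1.6% passed in either direction, 0.463% higher and 1.14% lower, so 1 call in 32 is near the background, and nothing is read from it about the list. An unadjusted p under 0.05 was reached by Jaml, Esam and Selplg, 3 of 32 (9.4%), against 18.1% of all genes. The groups did not overlap for Jaml and Itga4, 2 of 32, against 9.65% of all genes (3.01% with PM2.5 above and 6.64% below). Log2 fold changes were above 0 for 27 of the 32, against 54.3% of all genes, with a median of 0.21 against 0.045. That direction depends on scaling: 27 of 32 were above 0 with DESeq2 size factors, but 1 of 32 with library totals, where the median of all genes was -0.52, and 6 of 32 with haemoglobin removed, where it was -0.30. On log2(FPKM + 1), 1 of 23 was above 0 and the median of all genes was -0.28. Relative to the median of all genes, 23, 25 and 24 of the 32 were above it under the TMM, library-total and haemoglobin-removed scalings. On log2(FPKM + 1) it was 11 of 23 and on log2(FPKM + 0.1) 19 of 23.

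**Figure D1:**
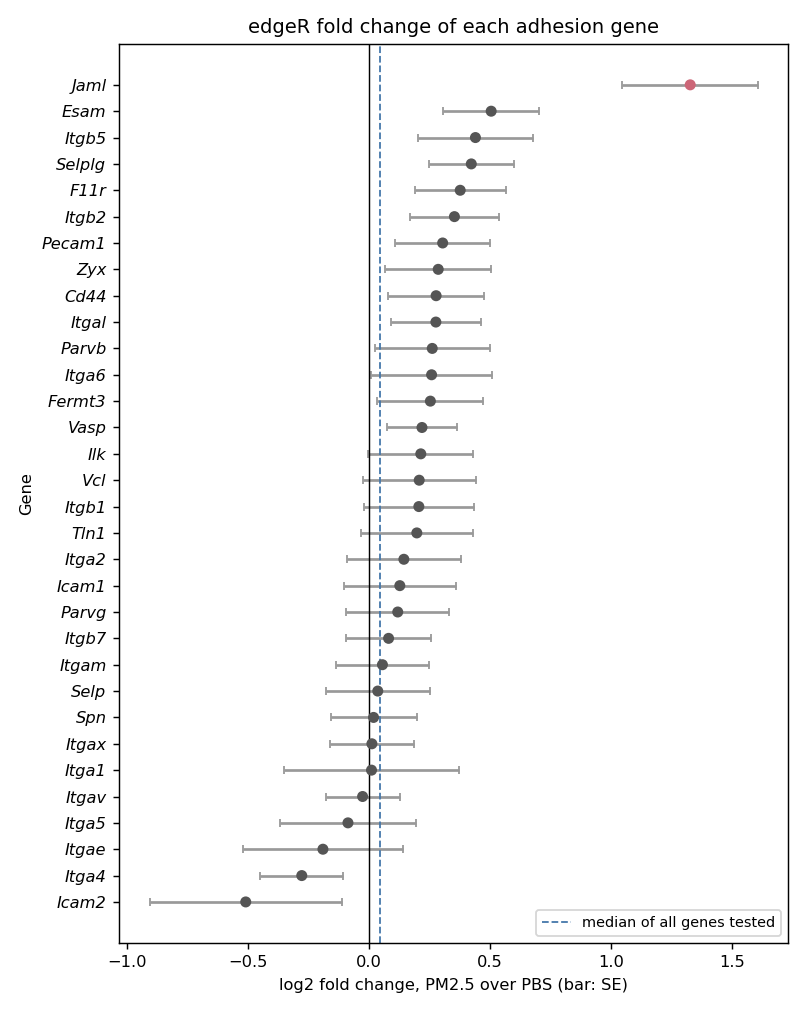
Log2 fold change, PM2.5 over PBS, of each of the 32 genes tested (points, x axis) with its SE (bars), genes ordered by value on the y axis. The dashed line is the median of all genes tested, 0.045; Jaml at 1.33 stands alone to the right and is the 1 gene past the threshold, while the other genes lie between -0.51 and 0.51.

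The 8 cell surface adhesion molecules held the call. Jaml (chromosome 9, 45079183 to 45108534, plus strand, GRCm38) had 0.809, 1.01, 0.518 and 0.558 CPM in PM2.5 replicates 9, 17, 18 and 21. CPM here are counts scaled to a common library size after TMM normalization, haemoglobin included. In PBS replicates 4, 10, 12 and 16 it had 0.302, 0.252, 0.230 and 0.354 CPM. Each PM2.5 library lay above each PBS library, and PM2.5 replicates 9 and 17 were the highest. The means were 0.723 ± 0.229 and 0.284 ± 0.0556 CPM (SD, n = 4 each), a log2 fold change of 1.33 (SE 0.28; edgeR quasi-likelihood adjusted p = 0.0253).

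The depth behind Jaml was small, with 65, 55, 28 and 47 counts in the PM2.5 libraries and 33, 27, 17 and 39 in the PBS libraries, in the order above. Its call was kept in 7 of 15 alternatives, with adjusted p from 0.00198 to 0.25 and log2 fold changes of 0.74 to 1.45. Leaving out PM2.5 replicate 9 gave an adjusted p of 0.0606, PM2.5 replicate 17 gave 0.093, PBS replicate 4 gave 0.0662 and PBS replicate 10 gave 0.117 (edgeR). In summed FPKM the groups overlapped. PM2.5 replicate 18, at 0.15, lay below PBS replicates 4 and 10, at 0.21 and 0.29. The highest value was 0.68, in PBS replicate 16. Of it, 0.33 and 0.19 FPKM were on the short transcripts Jaml-205 (427 bases) and Jaml-207 (589 bases). On the leading transcript Jaml-201 (2461 bases) the PM2.5 libraries had 0.39, 0.29, 0.15 and 0.23 FPKM and the PBS libraries 0.21, 0.09, 0.09 and 0.16, and the groups overlapped there too. The summed CPM of 11 neutrophil markers also separated the groups, at 28.8 to 56.1 with PM2.5 and 14.3 to 27.8 with PBS. Of 8 tested markers 5 were called higher. With library totals the sums overlapped, all 8 had log2 fold changes above 0 and 1 was called higher. The 10 monocyte markers summed to 143 to 229.7 CPM with PM2.5 and 114 to 181 with PBS, 3 of 10 called higher. With library totals their sums were 92.1 to 227.6 and 101.4 to 275.3. On that scale 5 of 10 had log2 fold changes above 0, and 2 were called higher and 1 lower. The 8 NK cell markers summed to 4.39 to 8.56 CPM with PM2.5, highest in replicate 17, and 2.82 to 4.17 with PBS. Of 7 tested 1 was called higher. With library totals these sums overlapped, 2 of 7 had log2 fold changes above 0 and 0 were called. Beside these marker counts, 0.463% of all genes tested were called higher on the TMM scale, and 8 of 10361 with library totals. The part of neutrophils, monocytes and NK cells in the Jaml result was not tested.

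Esam, an adhesion molecule of endothelial cells and platelets, had 7.11, 4.73, 6.59 and 4.55 CPM with PM2.5 and 5.52, 3.99, 3.66 and 2.998 with PBS. PM2.5 replicates 9 and 18 were the highest, and PBS replicate 4 lay above PM2.5 replicates 17 and 21. The log2 fold change was 0.51 (SE 0.20; edgeR adjusted p = 0.204, unadjusted p = 0.0207). F11r, a junctional molecule of epithelium, endothelium and platelets, averaged 2.63 ± 0.370 CPM in the PM2.5 libraries and 2.01 ± 0.510 in PBS (SD, n = 4 each; edgeR adjusted p = 0.296).

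Pecam1, which supports passage of leukocytes between endothelial cells and is also on platelets, had 22.5, 15.2, 22.3 and 14.9 CPM with PM2.5 and 18.7, 15.2, 13.9 and 12.7 with PBS. Cd44 had 52.9, 40.03, 49.5 and 36.2 CPM with PM2.5 and 46.1, 35.3, 34.7 and 31.2 with PBS. In both genes PM2.5 replicates 9 and 18 and PBS replicate 4 were the highest of their groups, and the groups overlapped. Log2 fold changes were 0.31 (SE 0.20) for Pecam1 and 0.28 (SE 0.20) for Cd44, with edgeR adjusted p of 0.417 and 0.462.

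Icam1 and Icam2, ligands of the leukocyte integrins, were low, with 0.513 to 0.820 and 0.0550 to 0.609 CPM over all libraries. Spn, the leukocyte sialomucin CD43, averaged 5.81 ± 1.29 CPM in the PM2.5 libraries and 5.74 ± 0.722 in PBS (SD, n = 4 each). Log2 fold changes of these were 0.13 (SE 0.23), -0.51 (SE 0.40) and 0.02 (SE 0.18), and none passed the test. Icam2 was the lowest in PM2.5 replicate 17, with 3 counts.

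**Figure D2:**
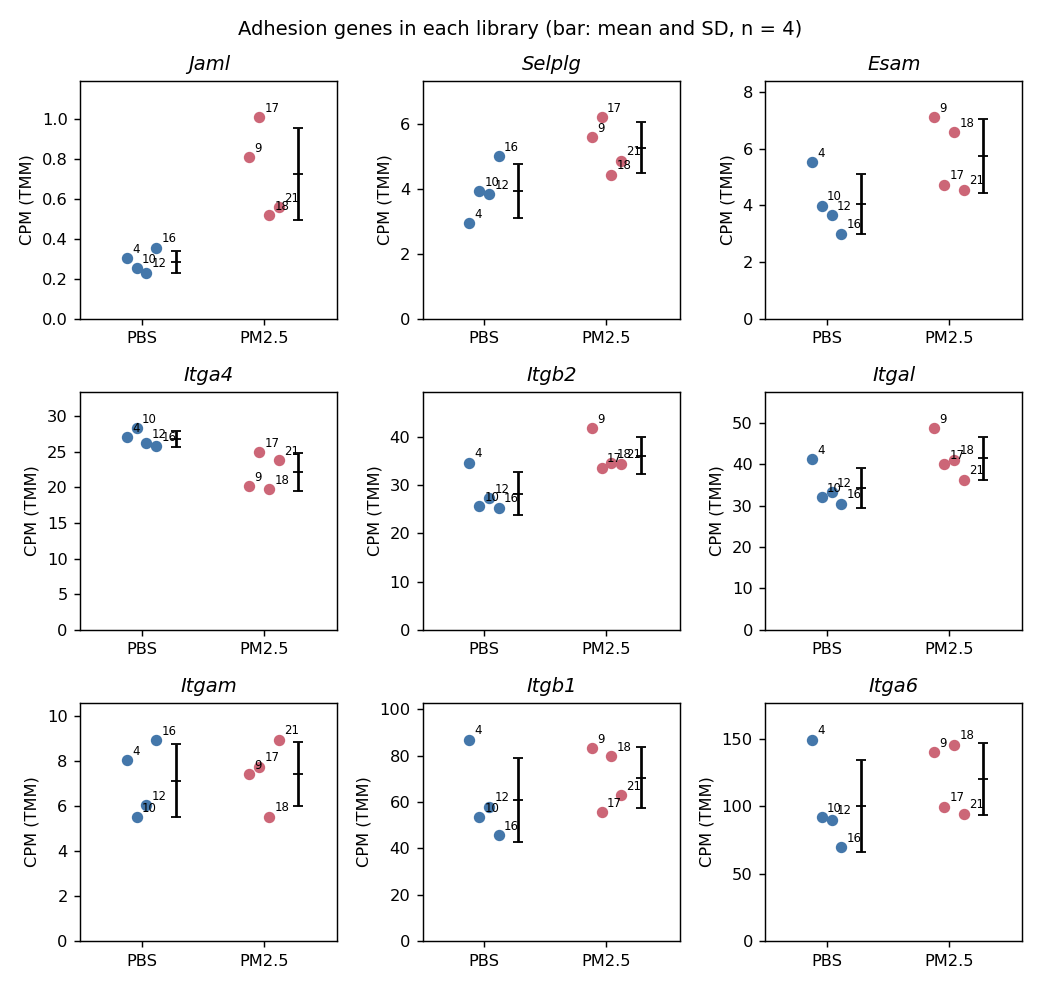
CPM after TMM scaling (y axes, from 0) of 9 genes in each PBS (blue) and PM2.5 (red) library, each point carrying its replicate number, with mean and SD (n = 4) beside them. Jaml has its PM2.5 points all above PBS and Itga4 its PM2.5 points all below; in the other 7 panels the groups overlap.

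None of the 10 alpha subunits tested passed the test. On the TMM scale 6 were above 0, with library totals 0, and the TMM median log2 fold change was 0.01. Itga4 (chromosome 2, 79255426 to 79333123), the alpha subunit by which lymphocytes and monocytes bind VCAM and fibronectin, had 20.2, 25.0, 19.7 and 23.8 CPM with PM2.5. It had 27.1, 28.3, 26.2 and 25.8 CPM with PBS. Each PM2.5 library lay below each PBS library, with PM2.5 replicates 9 and 18 the lowest, a separation in this direction found in 6.64% of all genes. The log2 fold change was -0.28 (SE 0.17; edgeR adjusted p = 0.392), so the difference did not pass. It was negative in 18 of 18 alternatives, with adjusted p from 0.0597 to 0.659, and the groups overlapped in FPKM. The 10 B cell markers, of cells that carry this subunit, summed to 37.7 to 47.9 CPM with PM2.5 and 44.1 to 71.5 with PBS. Of these markers 3 of 10 were called lower, against 1.14% of all genes. With library totals 5 of 10 were, against 475 of 10361 genes. T cell markers summed to 17.7 to 22.4 and 13.99 to 21.8 CPM. On the TMM scale 8 of 10 T cell and 9 of 10 monocyte markers had log2 fold changes above 0, against 0 of 10 B cell markers. With library totals these counts were 0, 5 and 0. The part of B cells, T cells and monocytes in the Itga4 values was not tested.

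The alpha partners of Itgb2 lie together on chromosome 7, with Itgal at 127296260 to 127335138 and Itgam, Itgax and Itgad between 128062640 and 128223816. Itgal had 48.7, 40.03, 41.1 and 36.3 CPM with PM2.5 and 41.2, 32.1, 33.2 and 30.5 with PBS. Itgam, the alpha subunit of myeloid cells that binds complement, had 7.41, 7.73, 5.51 and 8.95 CPM with PM2.5 and 8.04, 5.49, 6.04 and 8.90 with PBS. Itgal overlapped only through PBS replicate 4, which lay above PM2.5 replicates 17, 18 and 21, and Itgam overlapped throughout. Their log2 fold changes were 0.28 (SE 0.19) and 0.06 (SE 0.19), with edgeR adjusted p of 0.434 and 0.897. Itgax, used as a dendritic cell marker, had 1.51 ± 0.266 and 1.48 ± 0.0857 CPM (SD, n = 4 each).

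The other alpha subunits also overlapped between groups. Itga6 spanned 94.5 to 146 CPM with PM2.5 and 69.7 to 149.7 with PBS, and Itga2, the collagen receptor subunit of platelets, 12.2 to 24.0 and 11.3 to 22.8. Itgav, which pairs with several beta subunits to bind vitronectin, had 2.46 ± 0.330 and 2.505 ± 0.153 CPM (SD, n = 4 each). Itga5 (fibronectin receptor), Itgae (of lymphocytes in epithelium) and Itga1 were below 1 CPM in every library, with log2 fold changes of -0.09 (SE 0.28), -0.19 (SE 0.33) and 0.01 (SE 0.36).

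All 4 beta subunits had log2 fold changes above 0 and none passed. Itgb2 (chromosome 10, 77530252 to 77565708) had 41.8, 33.6, 34.6 and 34.5 CPM with PM2.5 and 34.7, 25.6, 27.4 and 25.4 with PBS. PBS replicate 4 alone among the controls reached the PM2.5 range. The means were 36.1 ± 3.81 and 28.3 ± 4.40 CPM (SD, n = 4 each), a log2 fold change of 0.35 (SE 0.18; edgeR adjusted p = 0.313). Itgb1 had 83.1, 55.6, 79.7 and 62.9 CPM with PM2.5 and 86.9, 53.3, 57.9 and 45.7 with PBS. Its highest value was in PBS replicate 4, and its log2 fold change was 0.21 (SE 0.23; edgeR adjusted p = 0.651). Itgb7, the gut-homing beta subunit of lymphocytes, had 4.98, 5.11, 3.81 and 5.14 CPM with PM2.5 and 3.99, 5.53, 3.35 and 5.12 with PBS. Its groups overlapped throughout, with a log2 fold change of 0.08 (SE 0.18; edgeR adjusted p = 0.832). Itgb5, a partner of Itgav, had 19.2 ± 5.80 and 14.2 ± 4.26 CPM (SD, n = 4 each), a log2 fold change of 0.44 (SE 0.24; edgeR adjusted p = 0.330). With library totals and on the FPKM scale the log2 fold changes of the 4 beta subunits were below 0.

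Selplg, the P-selectin ligand on leukocytes, had 5.58, 6.19, 4.42 and 4.86 CPM with PM2.5 and 2.94, 3.93, 3.83 and 4.99 with PBS. PBS replicate 16 alone among the controls reached the PM2.5 range, and PBS replicate 4 was the lowest library. The log2 fold change was 0.42 (SE 0.17; edgeR adjusted p = 0.221, unadjusted p = 0.0264). Selp, P-selectin itself, stored in platelets and endothelium, had 5.07, 2.38, 3.24 and 3.78 CPM with PM2.5 and 4.90, 2.87, 3.23 and 3.15 with PBS. These overlapped throughout, with a log2 fold change of 0.04 (SE 0.21; edgeR adjusted p = 0.942).

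The 8 integrin adaptors had log2 fold changes between 0.12 and 0.29, and none passed. With library totals or with haemoglobin removed 0 of the 8 were above 0. Fermt3 (chromosome 19, 6998958 to 7019469), mutated in a leukocyte adhesion deficiency with bleeding, had 61.6, 39.5, 58.5 and 47.0 CPM with PM2.5. It had 60.2, 40.1, 37.1 and 35.6 CPM with PBS. Tln1 had 148.8, 100.4, 143.2 and 122.4 CPM with PM2.5 and 161, 101, 94.1 and 92.5 with PBS. In both, PBS replicate 4 lay among or above the highest PM2.5 libraries, while the other 3 controls lay near or below PM2.5 replicate 17, the lowest of its group. Log2 fold changes were 0.25 (SE 0.22) and 0.20 (SE 0.23), with edgeR adjusted p of 0.547 and 0.672. Of the others, Zyx averaged 78.0 ± 14.04 CPM in the PM2.5 libraries and 63.9 ± 15.3 in PBS, and Parvb 85.6 ± 18.8 and 71.3 ± 21.9 (SD, n = 4 each).

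Vasp, which extends actin filaments at adhesions, averaged 5.35 ± 0.117 CPM in the PM2.5 libraries and 4.59 ± 0.539 in PBS (SD, n = 4 each). Vcl (vinculin, which ties talin to actin) and Ilk had log2 fold changes of 0.21 (SE 0.23) and 0.22 (SE 0.22). Both overlap a gene on the other strand, Vcl with Ap3m1 over 2090 exon bases and Ilk with Taf10 over 2106, so their counts are uncertain where strand was not used. Itgam shares 3450 exon bases with Gm49368 on the same strand, which held 48.2 counts over all libraries, and Itga4 shares 1124 with Cerkl on the other strand, which held 70 counts. Parvg, the parvin of blood cells, had 0.851 to 1.62 CPM with a log2 fold change of 0.12 (SE 0.21).

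Much of the spread within groups followed a common order of libraries, which was described after the values were seen. In 16 of the 32 genes PBS replicate 4 was the highest of the controls and PM2.5 replicates 9 and 18 were the 2 highest of their group, an order found in 8.6% of all genes tested and in 6 of 10 platelet markers. These were Itga2, Itga6, Itgal, Itgb1, Itgb2, Itgb5, Pecam1, Cd44, F11r, Esam, Fermt3, Tln1, Vcl, Zyx, Ilk and Parvb, which held 91.7% of the adhesion gene counts. Their summed level was 923, 621, 875 and 695 CPM in PM2.5 replicates 9, 17, 18 and 21 and 909.9, 596, 592 and 512 in PBS replicates 4, 10, 12 and 16. The groups overlapped, and the high libraries in this sum are those by which the genes were chosen.

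The platelet markers Pf4, Ppbp, Gp9, Gp1ba, Gp1bb, Gp5, Gp6, Treml1, Clec1b and Tubb1 summed to 839, 491, 733 and 665 CPM in the PM2.5 libraries and 744, 484, 504 and 421 in the PBS libraries, in the same order. All 10 had log2 fold changes above 0, with a median of 0.32, and none passed the test; 0 of 10 were above 0 with library totals and 7 of 10 with haemoglobin removed. The median of the 16 adhesion genes in this order was 0.27. The other 16 tested genes, among them Itga4, Itgam, Itgax, Itgb7, Selplg, Spn and Jaml, summed to 64.5, 67.5, 53.2 and 65.0 CPM with PM2.5 and 64.6, 65.2, 60.03 and 66.5 with PBS, with a median log2 fold change of 0.03. Because the genes were parted by this order of libraries, the contrast between the sums of the parts follows from the choice and supports nothing. The part of platelet RNA in the level of the first 16 genes was not tested.

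**Figure D3:**
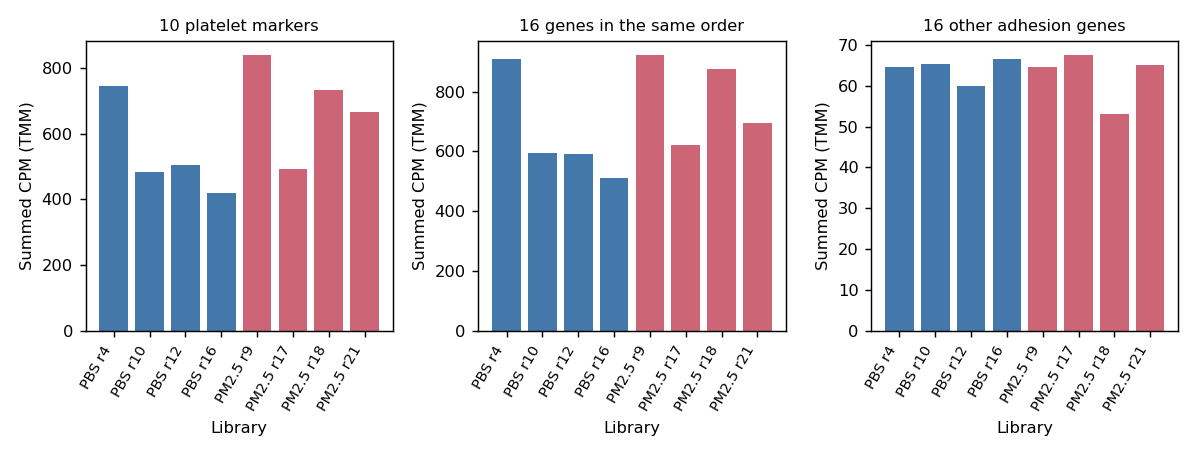
Summed CPM after TMM scaling (y axes, from 0) in each PBS (blue) and PM2.5 (red) library for the 10 platelet markers, the 16 adhesion genes in the common order and the 16 other adhesion genes tested. The platelet markers are highest among controls in PBS replicate 4 (744 CPM); the adhesion genes of the second panel were chosen for that order, so its shape (909.9 CPM in PBS replicate 4) is a description, and the bars of the third span 53.2 to 67.5.

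**Figure D4:**
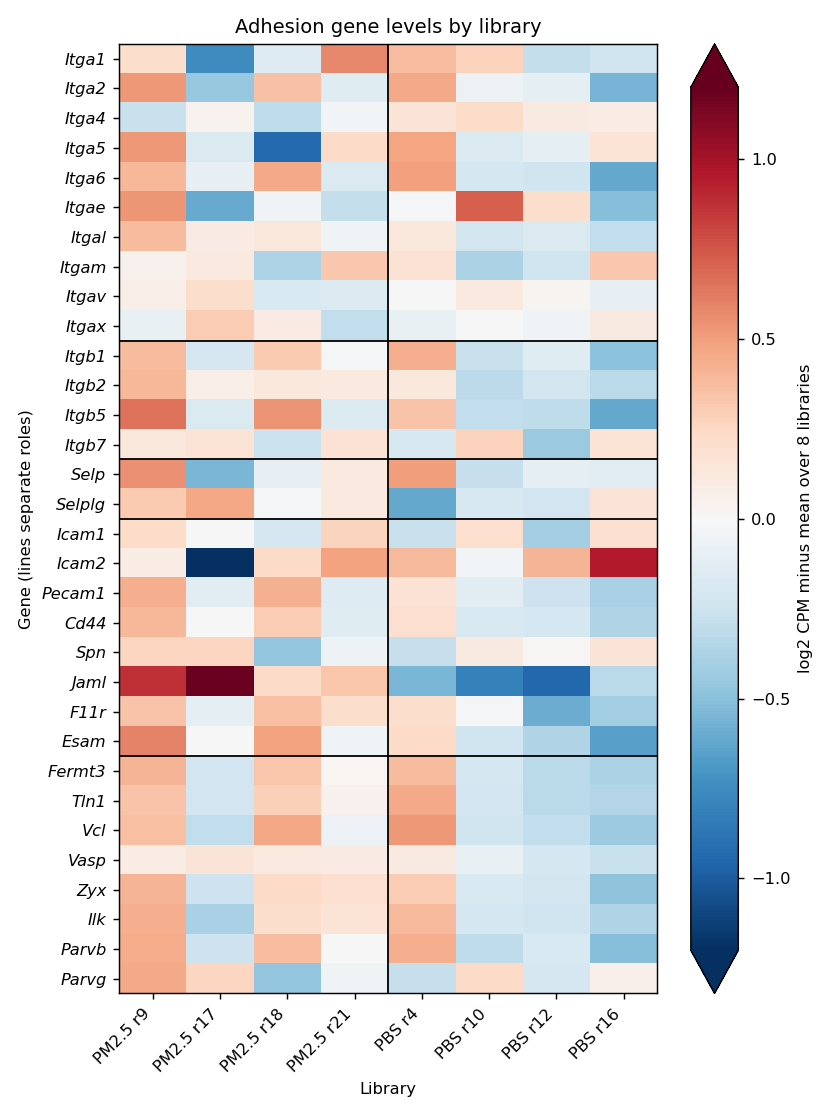
Log2 CPM minus the gene's mean over the 8 libraries (colour) for the 32 genes tested, one row each, ordered by role, with PM2.5 and PBS libraries parted by a line. Itgb1, Tln1, Vcl, Ilk and Parvb are high together in PBS replicate 4, while Jaml is high in the PM2.5 columns and Itga4 in the PBS columns.

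Because an integrin needs both subunits, the log2 ratio of alpha to beta FPKM was taken within each library for 12 of 13 known pairs, the pair of Itgad being left out for its low counts. Itgal to Itgb2 was -0.78 ± 0.10 with PM2.5 and -0.70 ± 0.04 with PBS, and Itgam to Itgb2 -2.77 ± 0.09 and -2.81 ± 0.32 (SD, n = 4 each). Itga6 to Itgb1 was 0.84 ± 0.12 and 0.78 ± 0.10. In these 3 pairs the groups overlapped and the difference did not pass (exact permutation p = 0.286, 0.857 and 0.457, in that order).

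The largest differences were in pairs of Itgav and Itga4. Itgav to Itgb5 was -4.40, -3.46, -4.76 and -4.05 with PM2.5 and -3.38, -3.09, -3.42 and -3.26 with PBS. Each PM2.5 library was below each PBS library, a difference of -0.88 (exact permutation p = 0.0286, two-sided, the smallest that 4 against 4 allows; Benjamini-Hochberg adjusted p = 0.343 over 12 pairs). From counts in place of FPKM the difference was -0.47 with overlapping groups (exact permutation p = 0.2). Itgav to Itgb1 differed by -0.68 (exact permutation p = 0.0857), Itga4 to Itgb1 by -0.60 (0.143) and Itga4 to Itgb7 by -0.35 (0.2), and no pair passed after adjustment.

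**Figure D5:**
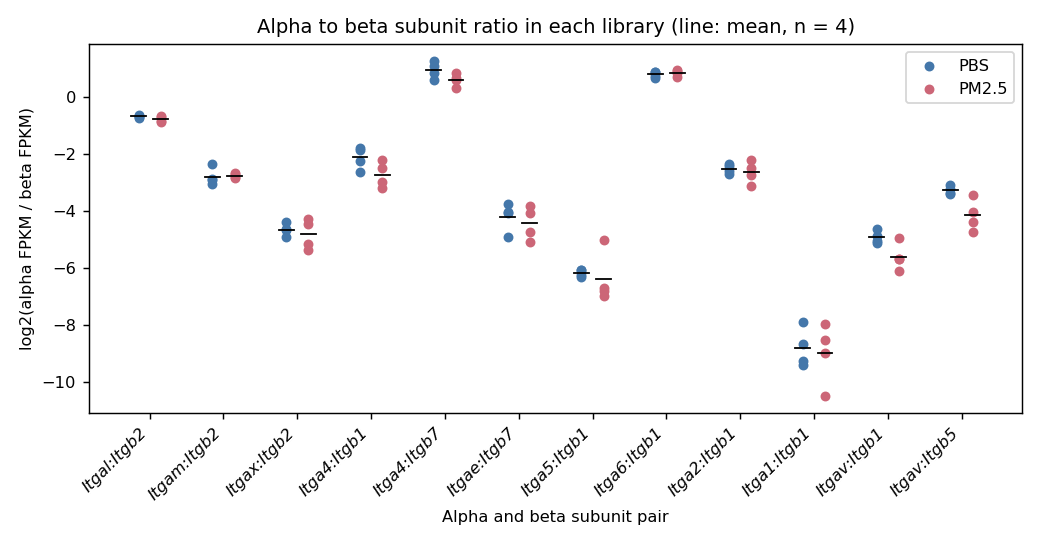
Log2 of alpha over beta FPKM (y axis) for the 12 pairs (x axis) in each PBS (blue) and PM2.5 (red) library, lines marking group means (n = 4). Itga6 to Itgb1 and Itga4 to Itgb7 lie above 0; for Itgav to Itgb5 the PM2.5 points lie below the PBS points (means -4.17 and -3.29).

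The table lists transcripts, so the share of a gene's counts on its leading transcript could be compared in 27 genes. None passed after adjustment over the 27 (smallest adjusted p = 0.257, exact permutation tests). Itgav-201 took 94.4%, 93.2%, 98.3% and 96.1% with PM2.5 and 86.6%, 87.7%, 90.8% and 87.6% with PBS, Selp-205 98.3% ± 1.30 and 100% ± 0, and Vcl-201 99.9% ± 0.0952 and 99.6% ± 0.164 (SD, n = 4 each). In each of these 3 of 27 the groups did not overlap (11.1%; exact permutation p = 0.0286), as in 5.09% of 6459 genes, and Selp had only 18 counts off Selp-205 over all libraries. Vasp-201 took 91.9% ± 4.43 and 97.3% ± 1.34 (SD, n = 4 each; exact permutation p = 0.0857, adjusted p = 0.514).

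The share on transcripts not annotated as protein coding was described for genes with at least 20 counts in each library and 40 on such transcripts. It lay lower in every PM2.5 library than in every PBS library for Itgav, Cd44 and Vcl, 3 of 17 adhesion genes (17.6%), against 350 of 4274 genes (8.19%); the opposite separation was found in 0 of 17 and in 0.749% of genes. In Cd44 this was the retained-intron transcript Cd44-209 of 1907 bases, with 1.42%, 2.76%, 1.32% and 2.83% of the gene's counts with PM2.5 and 3.86%, 4.19%, 4.49% and 6.06% with PBS. The 2 main coding transcripts of Cd44 overlapped between groups, Cd44-203 with 51.8% ± 2.78 and 51.4% ± 2.25 and Cd44-207 with 43.6% ± 2.78 and 42.8% ± 2.33 (SD, n = 4 each). The share was lower on average with PM2.5 in 14 of the 17 genes (82.4%) and in 67.2% of all genes. For Vcl, and in large part for Itgav, the lower share restates the leading-transcript shares given above and is not a separate result. Vcl held 48 counts on such transcripts over all libraries.

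Other genes of the pathway were taken from 5 lists, and none of their tested members passed over all genes. Counts above 0 are on the TMM scale; with library totals they were 0, 1, 0, 4 and 3, in the order in which the lists follow. Of 13 other integrin and selectin genes 4 were tested, all with log2 fold changes above 0. Itga2b and Itgb3, which form the platelet fibrinogen receptor, had 154 ± 30.2 and 118.9 ± 38.9 CPM, and 184 ± 29.7 and 158.8 ± 58.6 CPM, PM2.5 first (SD, n = 4 each). Log2 fold changes were 0.37 (SE 0.24) and 0.21 (SE 0.25).

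Of the adhesion ligands and junction genes 10 of 16 were tested, 7 above 0, and 1 had an unadjusted p under 0.05. That was Cd47, a surface partner of integrins and a signal against phagocytosis, with 43.0 to 51.6 CPM with PM2.5 and 31.9 to 39.7 with PBS. Its groups did not overlap on the TMM scale, with a log2 fold change of 0.39 (SE 0.18; edgeR adjusted p = 0.258). Glg1, a selectin ligand, had -0.22 (SE 0.15) and Fn1, fibronectin, -0.57 (SE 0.39).

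Of the activation and adaptor genes 22 of 27 were tested, 12 above 0. An unadjusted p under 0.05 was reached by 6, of which 5 were lower. The smallest p values belonged to Cyth1, a regulator of Itgb2-type integrins, at 3.15 ± 0.988 and 5.24 ± 1.202 CPM, and Sharpin, an inhibitor of integrin activation, at 1.38 ± 0.124 and 1.895 ± 0.209 (SD, n = 4 each). Their log2 fold changes were -0.72 (SE 0.22) and -0.45 (SE 0.16), with edgeR adjusted p of 0.104 and 0.172. Sharpin did not overlap between groups, while Cyth1 did.

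Of the signalling genes 18 of 19 were tested, 14 above 0, with 4 higher and 1 lower at an unadjusted p under 0.05. Fgr, a Src-family kinase of myeloid cells, averaged 3.29 ± 0.834 CPM in the PM2.5 libraries and 1.91 ± 0.493 in PBS (SD, n = 4 each). The log2 fold change was 0.77 (SE 0.20; edgeR adjusted p = 0.0649), and the groups overlapped. Syk, named here as the 1 lower gene, had a log2 fold change of -0.57 (SE 0.17, edgeR adjusted p = 0.109). Each PM2.5 library lay below each PBS library for Syk, as in 6.64% of all genes.

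Of the genes that glycosylate or shed selectin ligands 13 of 14 were tested, 10 above 0, and 5 had an unadjusted p under 0.05, all higher. St3gal4 and St3gal6, sialyltransferases that finish the sugars selectins bind, had 1.40 ± 0.264 and 0.768 ± 0.177 CPM, and 3.43 ± 1.23 and 1.99 ± 0.429 (SD, n = 4 each). St3gal4 was higher in each PM2.5 library than in each PBS library, with a log2 fold change of 0.87 (SE 0.22; edgeR adjusted p = 0.0548). St3gal6 overlapped, with a log2 fold change of 0.78 (SE 0.22; edgeR adjusted p = 0.0888). At 18.1% of all genes, an unadjusted p under 0.05 is the background for the counts of all 5 lists.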

How the data were processed

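The deposited table gives, for 118783 Ensembl transcripts in 8 mouse buffy coat libraries, expected counts (estimated counts without normalization, 24.5% of them not whole) and FPKM scaled by the authors by length and library, per the file headers. Tools named in the submitters' processing notes are HISAT2 2.0.1, cutadapt 1.9.1 and bcl2fastq 2.17.1.14, with the build GRCm38. Libraries were made strand-marked, per the labels' protocols. Which tool counted, and with what strand setting, is not given in the sources used here.

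Transcripts matched by identifier to GENCODE M21 (116710, leaving 2073 out) were summed to 35944 genes, rounded, and fitted in R 4.3.3 by edgeR 4.0.16 (two-sided quasi-likelihood test, TMM, filterByExpr with a minimum count of 10 and total of 15, group alone, Benjamini-Hochberg over 10361 genes, threshold 0.05). The SE is the fold change over the square root of F. Subunit ratios and transcript shares (20 counts or more in each library) were compared by exact permutation tests of 70 arrangements. DESeq2 1.42.0, limma 3.58.1 on log2(FPKM + 1) or + 0.1, other scalings and filters, and libraries left out were alternatives. With 65 or fewer counts for Jaml, counting error is part of the spread; counts without molecular identifiers are not independent molecules.

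On simulated data with known answers for this comparison (10212 genes), the test recovered 10.4% at a 1.5-fold change, 82.1% at 2-fold and 100% at 4-fold. There were 14 false calls among 142, a larger share than the threshold of 0.05. The changed genes were drawn only from those above a set mean CPM. These rates therefore do not cover genes as low as Itga1, Itgae and Icam2. Jaml, with means of 0.723 CPM with PM2.5 and 0.284 with PBS, lay near that limit, so the rates may not hold for it. The genes described, the marker and pathway lists and the tests were chosen with earlier results of these data known. Members past the threshold or with an unadjusted p under 0.05 are given by library, with Itgal, Itgam, Itga4, Itgb1, Itgb2, Itgb7, Selp, Selplg, Pecam1, Cd44, Fermt3 and Tln1 always. Of each pathway list the 2 of smallest p are named, with Itga2b and Itgb3 always, and of ratios and shares those with the 4 smallest p. A few picks of this rule are not reported here. Levels described by transcript type, library order and overlapping genes were chosen after values were seen.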

Additional observations from a re-analysis of the deposited data

Results flagged for a closer look

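In 12 of 142 groups of 4 libraries the highest or the lowest library stood far from the other 3, where chance gives about 1 in 20. The groups come from the same libraries and are not independent, so no excess is read from this count. In gene levels, Itgb2 in PM2.5 replicate 9 was 41.8 CPM against 33.6 to 34.6 in the rest of its group, and Itgb7 in PM2.5 replicate 18 was 3.81 CPM against 4.98 to 5.14. PBS replicate 4 stood above the other controls for 3 adaptors: Tln1 at 161 CPM against 92.5 to 101, Vcl at 37.1 against 19.2 to 22 and Ilk at 34.1 against 20.3 to 22.5. The log2 FPKM ratio of Itga5 to Itgb1 was -5.03 in PM2.5 replicate 9 and -6.99 to -6.71 in the other PM2.5 libraries.

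The remaining 6 concerned leading-transcript shares. Itgb2-201 took 96.7% in PBS replicate 4 against 98% to 98.3%, Cd44-203 took 56% in PM2.5 replicate 9 against 49.9% to 50.9%, and Fermt3-201 took 96.5% in PM2.5 replicate 21 against 98% to 98.3%. In F11r-201 the shares were 99.2% (PM2.5 replicate 9) and 97% (PBS replicate 12), and in Parvg-201 68.8% (PBS replicate 10), each against 100% in the rest of its group. In F11r-201 and Parvg-201 a share under 100% in 1 library stands apart by construction when the other 3 are at 100%, so the chance rate given above does not hold for these.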

How the results depend on the processing

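Of 32 genes tested, 1 (Jaml) was called and 27 were above 0, and 166 genes were called in all. With library totals these counts were 0, 1 and 483, and with haemoglobin removed 0, 6 and 226. On log2(FPKM + 1) and on log2(FPKM + 0.1) with limma they were 0, 1 (of 23 genes tested) and 0, with 716 and 695 genes at an unadjusted p under 0.05. At 1 CPM or more in 4 libraries no adhesion gene was called, since Jaml was not tested there. Without a filter 624 genes were called and with DESeq2 365, Jaml among both. Leaving out single libraries gave 0 to 1 adhesion genes called, 31 to 192 genes called and 22 to 28 adhesion genes above 0. The count of all genes called was 55, 69 and 85 without PM2.5 replicates 17, 18 or 21, 87 without PBS replicate 4 and 31 without PBS replicate 10. The Jaml call ended on removal of either of replicates 9 and 17 of the PM2.5 group, or of either of replicates 4 and 10 of the controls. Without PM2.5 replicates 17 and 18, 0 adhesion genes and 8 genes in all were called (Jaml edgeR adjusted p = 0.161), and without replicates 9 and 21, 0 and 189 (0.057). The cause was not tested. Outside the members, Cd47, Cyth1, Fgr, St3gal4 and St3gal6 passed in 1 to 6 of their alternatives. The smallest adjusted p of a subunit ratio ranged from 0.171 to 0.514 and of a transcript share from 0.238 to 0.386, so none passed. By summed FPKM the share of Itgav-201 differed by 24.8 percentage points and that of Selp-205 by -44.2. No paired analysis was possible because the groups share no replicate number. Depth limits Itgad, Icam2, Itga1, Itgae and Jaml among others, with 0 to 6, 3 to 67, 8 to 35, 13 to 64 and 17 to 65 counts in a library.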
